A study of Mus musculus with 2 samples.

Results

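The genes described here are 42 genes whose transcripts are commonly used to mark the S phase of the cell cycle, the time in which a cell copies its DNA. They were taken as a fixed list of symbols, and all 42 were found among the 27998 genes of the deposited count matrices. The list holds 6 subunits of the replicative helicase (Mcm2 to Mcm7), 7 genes of origin firing and the replication checkpoint, 8 genes of the polymerases and the sliding clamp, 3 genes of nucleotide supply, 6 repair genes, 10 genes of chromatin and histone supply, and the pair Ccne2 and E2f8 that encode a cyclin and a transcription factor. Their summed share of all transcripts was measured in each cell type of the E12.5 mouse liver and in the 6 erythroid subclusters named Ery 1 to Ery 6, and each gene was then set against the sum of the others.

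Before S phase, the MCM helicase is loaded onto origins of replication, and at the start of S phase CDC45 and the GINS complex join it so that it unwinds the DNA. Polymerases held on the template by the PCNA clamp then copy both strands, while ribonucleotide reductase and thymidylate synthase supply deoxynucleotides, and chaperones bring new histones to the copied DNA. Many of these genes are transcribed under E2F factors as cells leave G1. Erythroid progenitors divide quickly and go through their last divisions while they begin to fill with hemoglobin, after which they leave the cell cycle and lose the nucleus.

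Cells came from 1 liver of a wild-type C57BL/6 embryo at E12.5. The liver was dissociated and sorted by flow cytometry to take out debris, dead cells and doublets, and was then processed as 2 libraries. The study's methods call these technical replicates, whereas the design text of the series speaks of 2 cell suspensions. They are treated here as technical replicates of 1 liver, so that no test between animals was possible, no p-value is given, and a difference is described by its size in each library and by exact 95% intervals that cover counting error only.

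Each cell has a type in the deposited table, which names HPSC (hematopoietic stem and progenitor cells, spelled as in the table), Ery (erythroid-committed progenitors, Ery 1 and Ery 2), Eryb (erythroblasts, Ery 3 to Ery 6), EryP (yolk sac-derived primitive erythroblasts), G (granulocytes), Mk (megakaryocytes), Mo/KC (monocytes and Kupffer cells), Hepa (hepatoblasts) and EC (endothelial cells). Of 27 entries in a list of cell type markers, 22 were highest in their own type in both libraries and 0 were at zero there. The exceptions were Myb, highest in G, Gata1, highest in Mk, and Klf1 and Car1, whose order between Ery and Eryb differed between libraries. The groups were made from the same counts, which include these genes, so a difference between groups is a description and not a test. The 5480 kept cells of library 1 had a median of 6261 unique molecular identifiers (UMIs, which mark each captured transcript) per cell, and the 5057 of library 2 had 9774. The barcode lists of kept cells shared 31 sequences. No doublets formed in droplets were removed here. Every member was detected in both libraries, from 421 to 34911 UMIs in library 1 and from 286 to 31865 in library 2. Since UMIs from transcript ends are not scaled for length or for how well a transcript is captured, levels are compared between cell groups and not between genes.

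The S phase sum was highest in early erythroid cells and lowest in the most mature ones. Ery 3 held 0.837% of its UMIs in the 42 genes in library 1 (95% interval 0.830 to 0.843%) and 0.647% in library 2 (0.642 to 0.653%). Ery 6 held 0.0838% (0.0815 to 0.0862%) and 0.0421% (0.0408 to 0.0434%), and primitive erythroblasts held 0.0436% (0.0395 to 0.0480%) and 0.0242% (0.0212 to 0.0275%). EryP was the lowest group in both libraries, and the highest was Ery 3 in library 1, while Ery 2 and Ery 3 differed by less than counting error in library 2.

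Progenitors and non-erythroid cells formed a narrow middle range. The sum was 0.447% (0.440 to 0.454%) and 0.419% (0.412 to 0.426%) in HPSC and 0.438% (0.428 to 0.447%) and 0.410% (0.401 to 0.419%) in G, a ratio of 1.02 in both libraries whose intervals of 0.995 to 1.05 and 0.994 to 1.05 include equality. It was 0.404% (0.389 to 0.420%) and 0.423% (0.410 to 0.437%) in Mo/KC, so that the order of HPSC and Mo/KC differed between libraries, with ratios of 1.11 (1.06 to 1.15) and 0.990 (0.955 to 1.03). Megakaryocytes had 0.347% (0.334 to 0.360%) and 0.395% (0.382 to 0.407%). Hepatoblasts were lower than HPSC in both libraries, at 0.315% (0.301 to 0.329%) and 0.311% (0.299 to 0.323%), and so were endothelial cells, at 0.260% (0.240 to 0.280%) and 0.315% (0.300 to 0.330%). HPSC exceeded hepatoblasts 1.42-fold (1.36 to 1.49) and 1.35-fold (1.29 to 1.41) and endothelial cells 1.72-fold (1.60 to 1.86) and 1.33-fold (1.27 to 1.40). These types were small, with 20 and 26 endothelial cells and 33 and 31 hepatoblasts, and counted per cell the order differed between libraries, with 61.1 S phase UMIs in hepatoblasts and 72.4 in HPSC in library 1 and 81.2 and 62.9 in library 2.

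How far single cells of a type differed depended on the library. In library 1 the share per cell in G had quartiles of 0.0672% and 0.572% around a median of 0.353%, in Mk of 0.00668% and 0.464% around 0.141%, and in HPSC of 0.318% and 0.572% around 0.435%, so that G and Mk reached much lower than HPSC. In library 2 the quartiles were 0.268% and 0.524% in G, 0.169% and 0.538% in Mk and 0.256% and 0.539% in HPSC, and the 3 types differed less. The kept cell with the fewest UMIs had 504 in library 1 and 4387 in library 2. In library 1, 53 of 79 Mk and 145 of 157 G cells had at least 1000 genes and under 10% mitochondrial UMIs. In library 2 all 56 Mk and all 130 G cells did. Whether this difference bears on the low quartiles of library 1 was not tested.

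**Figure D1:**
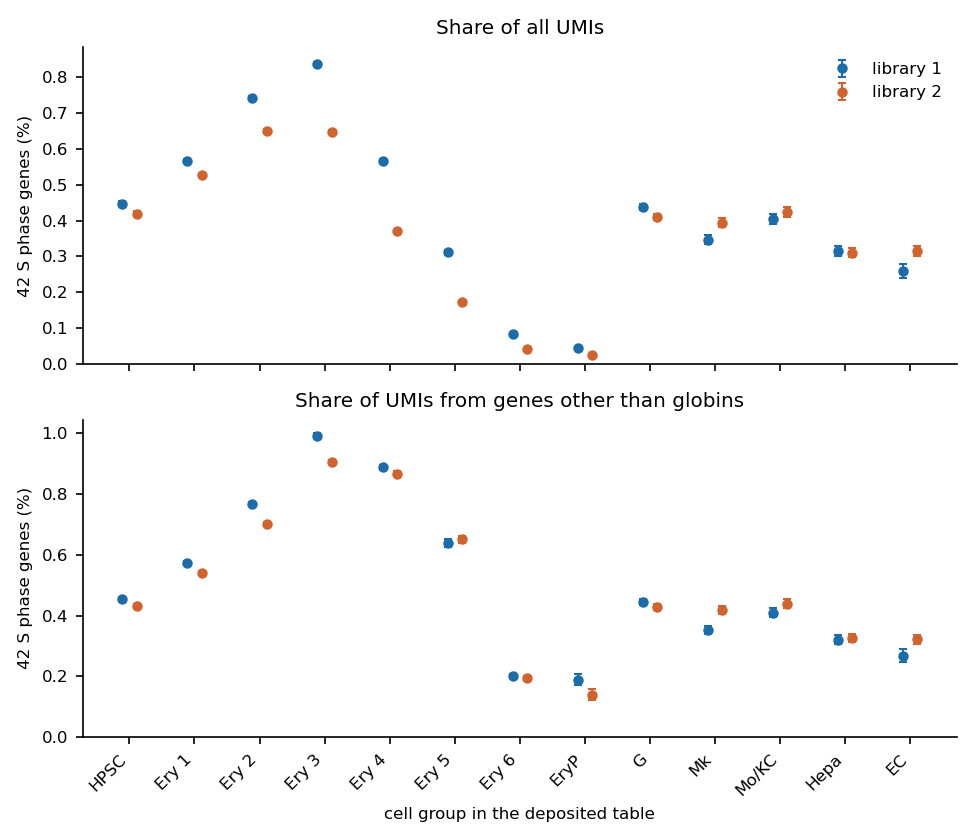
Sum of the 42 S phase genes in 13 cell groups, as percent of all UMIs (upper panel) and of UMIs outside 8 globin genes (lower panel), for each library, with exact 95% Poisson intervals. The sum rises from HPSC to Ery 3 and drops to Ery 6 and EryP in both panels, and the libraries, apart in the upper panel from Ery 3 to Ery 6, come together in the lower one.

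From HPSC to the first erythroid subcluster, the sum rose. Ery 1 held 0.567% (0.563 to 0.572%) and 0.527% (0.523 to 0.532%), or 1.27-fold (1.25 to 1.29) and 1.26-fold (1.23 to 1.28) the share in HPSC, and Ery 2 held 0.742% (0.736 to 0.748%) and 0.649% (0.644 to 0.655%). Against HPSC, the whole of Ery was 1.46-fold (1.43 to 1.48) and 1.40-fold (1.37 to 1.43) higher. Ery 4 then fell to 0.566% (0.561 to 0.571%) and 0.371% (0.367 to 0.374%), and Ery 5 to 0.311% (0.305 to 0.318%) and 0.173% (0.170 to 0.177%). Between Ery 1 and Ery 6 the sum dropped 6.77-fold (6.57 to 6.97) in library 1 and 12.53-fold (12.1 to 12.9) in library 2.

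Part of each of these shares is set by hemoglobin. Transcripts of 8 globin genes made up 1.07% and 2.37% of the UMIs of Ery 1 but 58.1% and 78.5% of those of Ery 6, which lowers every other gene's share. Among the remaining UMIs, the sum was 0.573% and 0.540% in Ery 1, 0.993% and 0.906% in Ery 3, 0.889% and 0.866% in Ery 4, 0.637% and 0.651% in Ery 5, and 0.200% and 0.196% in Ery 6. On this scale the libraries nearly met, and Ery 6 lay 2.87-fold (2.79 to 2.96) and 2.76-fold (2.68 to 2.85) below Ery 1. Counted per cell, the drop was larger, from 149 and 136 S phase UMIs in an average Ery 1 cell to 86.1 and 82.3 in Ery 3 and 3.92 and 3.55 in Ery 6. The direction from Ery 1 to Ery 6 was the same on the 3 scales. The step from Ery 2 to Ery 3 was not: it was a rise among non-globin UMIs in both libraries, a rise in library 1 and a difference within counting error in library 2 among all UMIs (Ery 2 over Ery 3 0.887 and 1.003, the latter with an interval of 0.991 to 1.02), and a fall per cell (1.42 and 1.497).

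To follow the genes without the subclusters, the Ery and Eryb cells of each library were ranked by how much of their RNA came from the 4 adult globin genes and divided into 10 groups of equal size, from group 1 with the least globin to group 10 with the most. The S phase sum among non-globin UMIs rose from 0.587% (0.582 to 0.592%) and 0.565% (0.561 to 0.569%) in group 1 to 0.997% (0.985 to 1.01%) and 0.938% (0.926 to 0.9502%) in group 4, where adult globin made up a median of 22.3% and 45.3% of UMIs. In group 10 it was 0.159% (0.150 to 0.168%) and 0.144% (0.135 to 0.154%). The peak was thus at the same rank of cells in both libraries, although the globin share at that rank differed.

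Members reached their peaks at different ranks of this order. The 6 helicase genes summed to their highest level in group 3 (0.181% and 0.172% of non-globin UMIs) and Rrm2 to its highest in group 5 (0.189% and 0.181%). In group 10 the helicase genes held 0.0211% and 0.0210% and Rrm2 held 0.0460% and 0.0512%. A list of 52 genes of G2 and mitosis, the phases that follow S phase, peaked later than either, in group 8, at 3.17% and 2.91%. Helicase genes, Rrm2 and mitotic genes therefore came in that order in both libraries.

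**Figure D2:**
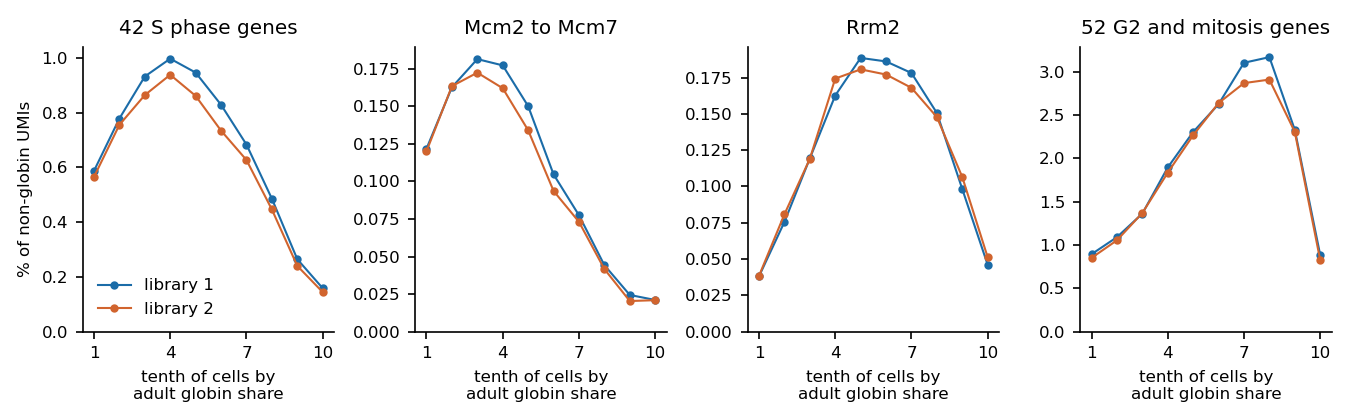
Ery and Eryb cells of each library in 10 equal groups by rising share of adult globin UMIs (x axis), against the summed UMIs of the 42 S phase genes, the helicase genes Mcm2 to Mcm7, Rrm2 and 52 G2 and mitosis genes as percent of non-globin UMIs (y axis, a scale for each panel). The peaks move to the right from the helicase genes (group 3) over the S phase sum (4) and Rrm2 (5) to the mitotic genes (8), at the same group in both libraries.

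To compare single cells at 1 depth, 3600 UMIs were drawn from each cell, and cells with fewer were not used (237 of 1218 in Ery 6 of library 1, and 0 in library 2). In library 1 this also kept only 402 of 557 Ery 2 cells and 1171 of 1357 Ery 4 cells. Thinned values of these subclusters in library 1 thus describe their deeper cells. An Ery 1 cell then held a median of 20 S phase UMIs in library 1 and 18 in library 2, an Ery 3 cell 30 and 23, an Ery 4 cell 21 and 14, an Ery 5 cell 8 and 5, and an Ery 6 cell 2 and 1. None of the 375 and 359 Ery 1 cells was without an S phase UMI, which allows a share of such cells of up to 0.979% and 1.02% (exact binomial). In Ery 6, 131 of 981 cells (13.4%, exact binomial interval 11.3 to 15.6%) and 417 of 1176 (35.5%, 32.7 to 38.3%) had none, against 9.36% and 12.8% before thinning. Thinning to 600 non-globin UMIs instead left 37.1% and 38.86% of Ery 6 cells without, so that the libraries then differed little. At that depth Ery 1 also had such cells. The share in Ery 6 was 32.9 percentage points above that in Ery 1 (mean of both libraries).

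Among the 6 subclusters, the spread between cells, taken as variance over mean, was largest in Ery 4 and Ery 5 in both libraries. This measure also depends on the mean count, which differed between subclusters, and on differences in the globin share between cells. A spread scaled to the mean was not computed. Variance over mean of the thinned S phase UMIs, which is 1 for counting error alone, was 2.19 and 1.76 in Ery 1, 1.74 and 2.09 in Ery 2, 2.82 and 2.53 in Ery 3, 7.84 and 4.94 in Ery 4, 7.81 and 5.58 in Ery 5, and 4.53 and 3.87 in Ery 6. Ery 4 thus held cells with few S phase UMIs next to cells with many, with 10th and 90th percentiles of 6 and 40 in library 1 and 3 and 25 in library 2. At least 10 S phase UMIs were found in 22 of 981 and 14 of 1176 Ery 6 cells.

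Promoter sequences are printed for 5 members that follow different courses in the erythroid cells, so that the letters before their starts can be read beside their values. They are members that stayed above the sum (Rrm2 and E2f8), members that fell early (Cdca7 and Hells), and Mcm5 as a helicase subunit. Of the 42 members, 32 were matched in a RefSeq table of promoters of build GRCm38.p6, and the printed bases are the 250 before the annotated start, 5′ to 3′ on the strand of the gene. Capitals mark the E2F-like letters TTTNNCGC and the CCAAT box, read on either strand, and capitals run together where matches overlap. Rrm2 lies at chr12:24708004-24708253 on the plus strand, E2f8 at chr7:48881597-48881846 on the minus strand, Cdca7 at chr2:72475969-72476218, Hells at chr19:38930740-38930989 and Mcm5 at chr8:75109259-75109508, these on the plus strand.
Rrm2: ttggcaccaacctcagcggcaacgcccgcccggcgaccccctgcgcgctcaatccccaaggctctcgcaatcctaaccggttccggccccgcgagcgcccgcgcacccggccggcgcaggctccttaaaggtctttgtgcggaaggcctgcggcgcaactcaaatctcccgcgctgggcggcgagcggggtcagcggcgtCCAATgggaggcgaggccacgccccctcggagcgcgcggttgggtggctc
E2f8: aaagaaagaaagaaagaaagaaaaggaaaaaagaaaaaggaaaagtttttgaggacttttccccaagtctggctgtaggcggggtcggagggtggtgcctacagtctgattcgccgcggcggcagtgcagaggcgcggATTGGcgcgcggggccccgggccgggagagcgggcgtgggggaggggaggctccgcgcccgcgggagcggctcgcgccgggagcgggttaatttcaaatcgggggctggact
Cdca7: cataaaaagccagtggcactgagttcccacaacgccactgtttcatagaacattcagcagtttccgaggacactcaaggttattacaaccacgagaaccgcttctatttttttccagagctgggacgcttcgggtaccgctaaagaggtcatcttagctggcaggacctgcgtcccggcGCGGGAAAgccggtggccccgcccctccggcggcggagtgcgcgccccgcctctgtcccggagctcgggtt
Hells: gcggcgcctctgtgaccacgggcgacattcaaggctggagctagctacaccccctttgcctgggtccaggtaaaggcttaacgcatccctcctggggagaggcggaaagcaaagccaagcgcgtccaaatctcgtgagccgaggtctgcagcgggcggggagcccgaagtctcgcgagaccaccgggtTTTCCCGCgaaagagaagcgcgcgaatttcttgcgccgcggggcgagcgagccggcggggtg
Mcm5: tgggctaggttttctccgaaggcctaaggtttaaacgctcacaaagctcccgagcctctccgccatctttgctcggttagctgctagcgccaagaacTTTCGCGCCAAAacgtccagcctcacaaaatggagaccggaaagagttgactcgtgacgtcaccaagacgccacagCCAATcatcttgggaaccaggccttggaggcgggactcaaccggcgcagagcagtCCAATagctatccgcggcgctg

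The E2F-like letters were found in 11 of the 32 member promoters (34.4%), against 4.94% of the promoters of 27025 symbols of the same length. These symbols were not limited to genes expressed in these cells, and a symbol counted if any of its entries matched. A count over expressed genes was not made. CCAAT was found in 23 (71.9%), against 37.5%, and TTTGAA, the letters of the cell cycle homology region of many mitotic genes, in 6 (18.8%), against 18.3%. The promoters of Rrm2, E2f8 and Blm, the members that stayed above the sum, held CCAAT and not the E2F-like letters. Those of Cdca7 and Hells held the E2F-like letters and not CCAAT, and those of Mcm5, Mcm6 and Mcm7 held both. CCAAT alone was found on both sides of the sum: of other members that fell below it, Nasp, Ubr7 and Mcm3 held CCAAT and not the E2F-like letters. Dtl held both, Ung, Chaf1b and Pold3 held neither, and Exo1 and Gins2 were not matched. Mcm2 also held CCAAT alone. Such matches describe the letters of these windows and are not shown to be bound sites.

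The members' shares of the S phase sum shifted towards the nucleotide supply genes of the list, mostly Rrm2, as erythroid cells matured. Rrm2 alone went from 6.29% of the sum in library 1 and 6.57% in library 2 in Ery 1 to 33.4% and 32.9% in Ery 5. A rise of Rrm2 by itself lowers the shares of the other members. In Ery 1 the 6 helicase genes made up 20.6% (95% interval 20.3 to 21.0%) of the S phase UMIs in library 1 and 21.0% (20.7 to 21.4%) in library 2, and Rrm1, Rrm2 and Tyms together 13.3% (13.1 to 13.6%) and 13.9%. In Ery 5 the helicase genes were down to 7.58% (7.05 to 8.15%) and 8.99% (8.44 to 9.57%), and the nucleotide supply genes were up to 45.8% (44.7 to 46.8%) and 44.2%. Genes of origin firing and the checkpoint went from 17.8% and 17.2% to 11.4% and 10.6%, those of polymerases and the clamp from 19.6% and 18.5% to 12.6% and 13.3%, and those of chromatin and histone supply from 21.4% and 22.3% to 12.6% and 13.4%. Ccne2 and E2f8 together went from 0.991% and 0.913% to 4.001% and 3.78%. Repair genes stayed between 4.20% and 6.30% of the sum in Ery 1, Ery 3, Ery 5 and Ery 6. In Ery 6 the helicase genes were again at 13.9% (12.9 to 14.9%) and 13.5% (12.48 to 14.6%), above their share in Ery 5. Sums as low as that of Ery 6 are near what free RNA from broken cells can give, as described below. Whether free RNA bears on these shares was not tested.

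Of the 42 members, 41 passed a minimum of 10 CPM (counts per 1000000 UMIs) over all kept cells of each library, as did 5314 genes in all, and Brip1, a helicase of DNA repair, did not. In Ery 6, 40 of the 41 were at least 2-fold lower than in Ery 1 in both libraries and 0 were higher, next to 74.3% of all genes that were lower and 5.46% that were higher. The exception was Rrm2. The median member had a log2 fold change of -3.96, against -2.86 over all genes. Among non-globin UMIs, 35 of 41 members were at least 2-fold lower, and 0 higher, next to 50.8% and 16.7% of all genes, and the medians were -2.25 and -1.15. The median member therefore fell more than the median gene on either scale. The 6 members that did not pass among non-globin UMIs were Mcm2, Tyms, Rrm2, Ccne2, Blm and E2f8, and on that scale Rrm2 had log2 fold changes of 0.69 and 0.83.

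A member was taken to depart from the sum where its fold change differed from that of the other 41 members by 2-fold or more, the same way in both libraries, and by more than counting error. Between Ery 1 and Ery 6, 3 members departed upward (Rrm2, E2f8 and Blm) and 11 downward (Cdca7, Exo1, Hells, Ung, Gins2, Dtl, Ubr7, Nasp, Chaf1b, Mcm3 and Pold3), while 27 moved with the sum. Measured against the same S phase sum, 35.3% of all genes departed upward and 18.8% downward. Members make up that sum and other genes do not, so the counts and these shares are not measured alike. A smaller limit of 1.5-fold made 26 members depart and a larger one of 3-fold 5. Rrm2 is part of the sum the others are set against, and it made up 29.0% and 32.3% of it in Ery 6. Without Rrm2, Ery 1 over Ery 6 was 12.4 on the mean of both libraries, against 9.21 with it. Downward departures are thus enlarged by Rrm2, and calls against a sum without Rrm2 were not made.

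Rrm2, which encodes the small subunit of ribonucleotide reductase and whose protein is made for S phase, departed furthest upward. It was at 188 CPM (174 to 204) and 194 CPM (178 to 210) in HPSC, 357 CPM (345 to 369) and 346 CPM (335 to 359) in Ery 1, and 1202 and 917 CPM in Ery 3. In Ery 5 it was still at 1041 and 571 CPM, and in Ery 6 at 243 CPM (231 to 257) and 136 CPM (129 to 143). Rrm2 thus rose more than 2-fold from Ery 1 to Ery 3 and was still above its Ery 1 level in Ery 5. From Ery 1 to Ery 6 it fell to 0.682 (0.641 to 0.726) and 0.392 (0.367 to 0.418) of its share, which was 6.10 and 6.77 times the ratio of the other members.

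Rrm2 and the helicase genes moved apart. Rrm2 made up 6.29% of the S phase UMIs of Ery 1 in library 1 and 6.57% in library 2, 14.4% and 14.2% of those of Ery 3, 33.4% and 32.9% of those of Ery 5, and 29.0% and 32.3% of those of Ery 6. For each UMI of Mcm2 to Mcm7 together, Ery 1 held 0.305 (0.294 to 0.317) and 0.313 (0.300 to 0.325) Rrm2 UMIs, Ery 5 held 4.41 (4.06 to 4.80) and 3.66 (3.398 to 3.94), and Ery 6 held 2.09 (1.90 to 2.29) and 2.39 (2.16 to 2.64). In HPSC this ratio was 0.192 (0.176 to 0.209) and 0.202 (0.185 to 0.221), and in G, Mk, Mo/KC, Hepa and EC it lay between 0.257 and 0.405. The ratio was highest in Ery 5 in both libraries. It was 1.46 and 1.37 in Ery 4, and 0.932 (0.662 to 1.31) and 1.97 (1.29 to 3.05) in EryP. The other subunit, Rrm1, did not follow Rrm2: it was at 185 and 183 CPM in Ery 1, 341 and 269 CPM in Ery 3 and 37.2 and 18.2 CPM in Ery 6, which moved with the sum.

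E2f8 encodes an atypical E2F factor that represses E2F target genes late in S phase. It stood at 18.2 CPM (15.7 to 21.1) and 15.9 CPM (13.5 to 18.7) in Ery 1, rose to 91.2 CPM (84.6 to 98.3) and 64.4 CPM (59.0 to 70.1) in Ery 3, and held 87.6 CPM (77.2 to 99.1) and 42.3 CPM (37.2 to 47.9) in Ery 5. This was 5.01-fold (4.24 to 5.93) and 4.04-fold (3.36 to 4.88) more in Ery 3 than in Ery 1, the steepest rise of any member. It then dropped to 7.91 CPM (5.77 to 10.6) and 3.03 CPM (2.04 to 4.32) in Ery 6, or 45 and 30 UMIs. Blm, a helicase that takes apart recombination intermediates, was close to the limit in library 2, where its ratio was 2.00 times that of the other members, against 3.12 in library 1. It held 29.7 CPM (26.4 to 33.3) and 29.8 CPM (26.4 to 33.6) in Ery 1 and 13.5 CPM (10.7 to 16.9) and 4.74 CPM (3.49 to 6.31) in Ery 6. Tyms, thymidylate synthase, came next, at 1.95 and 1.64 times the ratio of the others, under the limit. On the lower side, the departing member nearest the limit was Pold3, at 0.392 and 0.382 of the ratio of the others. Some members lay past the limit in 1 library only and were not counted. Among them were Cdc6, past it in library 1 (0.351) and not in library 2 (0.610), and Clspn, past it in library 2 (0.470) and not in library 1 (0.521). Each library alone gave 18 departing members, against 14 in both.

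Among the members that departed downward, Cdca7 had the lowest ratio to the sum in library 1 and on the mean of both libraries, while Exo1 had the lowest in library 2. Cdca7 encodes a chromatin protein that works with the remodeller HELLS. It was at 166 CPM (153 to 181) and 169 CPM (155 to 184) in HPSC, 117 CPM (110 to 124) and 126 CPM (119 to 134) in Ery 1, 70.8 and 75.4 CPM in Ery 2, 24.8 and 22.8 CPM in Ery 3, and 1.76 CPM (0.842 to 3.23) and 1.92 CPM (1.15 to 2.99) in Ery 6. Cdca7 thus declined at each step from HPSC to Ery 4, while the S phase sum rose up to Ery 2 or Ery 3. Hells was at 94.2 and 92.2 CPM in HPSC, 65.2 and 66.0 CPM in Ery 1, 32.1 and 35.3 CPM in Ery 3 and 1.58 and 1.92 CPM in Ery 6. Ung, which removes uracil from DNA, went from 124 and 111 CPM in HPSC over 88.5 and 77.9 CPM in Ery 1 to 35.2 and 34.8 CPM in Ery 3. Exo1, an exonuclease of mismatch repair, went from 42.03 and 34.2 CPM in Ery 1 to 27.3 and 16.5 CPM in Ery 3 and to 10 and 4 UMIs in all of Ery 6.

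From Ery 1 to Ery 3, 2 of 41 members were at least 2-fold lower and 2 higher, next to 27.6% and 6.53% of all genes. In the same comparison, where 2 members departed upward (Rrm2 and E2f8, next to 4.46% of all genes), the 5 that departed downward were Cdca7, Ung, Hells, Exo1 and Nasp, next to 46% of all genes. Nasp, a histone chaperone, was at 352 and 352 CPM in Ery 1, 232 and 220 CPM in Ery 3 and 18.1 and 9.79 CPM in Ery 6. Gins2, a GINS subunit, Dtl, an adaptor for degradation at replication forks, and Chaf1b, a subunit of the CAF-1 histone chaperone, fell mostly after Ery 3: Dtl was at 80.8 and 81.6 CPM in Ery 1, 90.9 and 65.2 CPM in Ery 3 and 6.504 and 3.58 CPM in Ery 5. Between Ery 3 and Ery 5, 16 members departed downward (11.5% of all genes), Dtl, Hells and Nasp furthest, and the 2 upward were again Rrm2 and E2f8 (23.3% of all genes). Pold3, a subunit of polymerase delta, and Ubr7, a ubiquitin ligase of histones, also lay below the sum in Ery 6, with 24 and 20 UMIs and 9 and 10 UMIs there.

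All 6 helicase subunits fell from Ery 1 to Ery 6, Mcm2 least and Mcm3 most. Mcm2 was at 191 CPM (182 to 199) and 163 CPM (155 to 171) in Ery 1, 306 and 233 CPM in Ery 3, and 32.3 CPM (27.8 to 37.3) and 18.6 CPM (16.0 to 21.5) in Ery 6. Mcm3, the one subunit that departed from the sum with Rrm2 in it, was at 192 and 190 CPM in Ery 1 and 10.0 and 6.06 CPM in Ery 6. Mcm4 to Mcm7 kept between 0.0918 and 0.0976 of their Ery 1 share in Ery 6 of library 1 and between 0.0399 and 0.0488 in library 2, whereas Mcm2 kept 0.170 (0.145 to 0.197) and 0.114 (0.0973 to 0.133) and Mcm3 0.0523 (0.0394 to 0.0680) and 0.0319 (0.0242 to 0.0412). Pcna, the sliding clamp, moved with the sum, from 275 CPM (265 to 286) and 217 CPM (207 to 226) in Ery 1 over 523 and 335 CPM in Ery 3 to 30.6 CPM (26.2 to 35.5) and 13.2 CPM (11.1 to 15.7) in Ery 6.

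**Figure D3:**
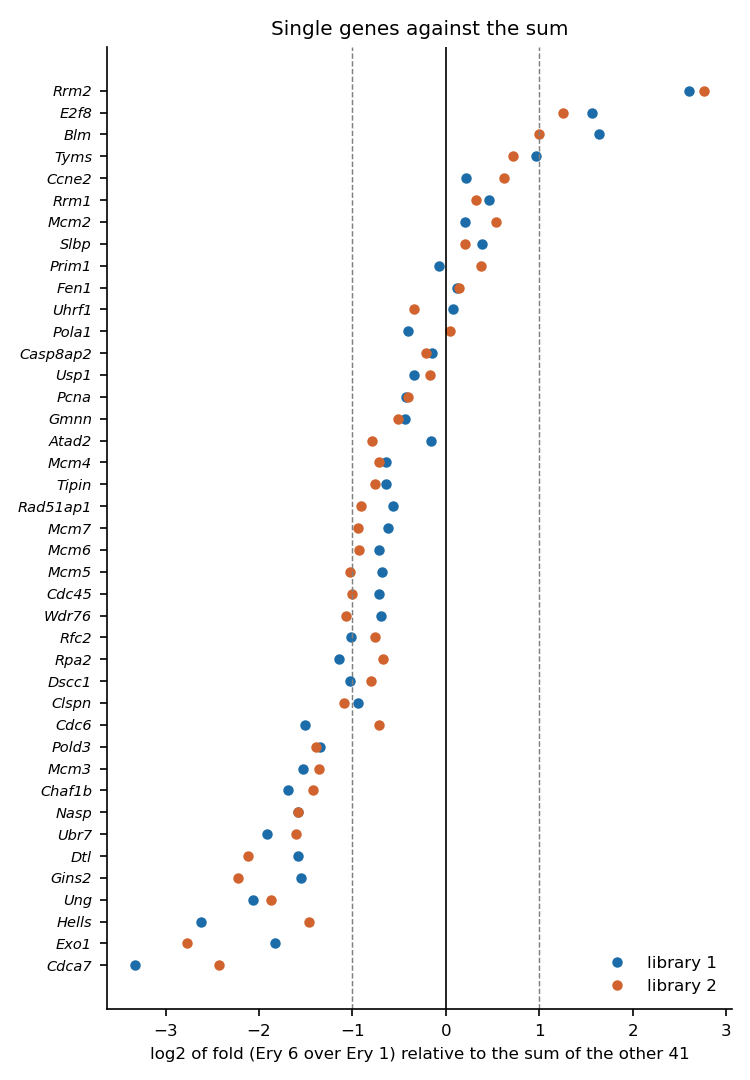
Fold change of each of the 41 members that passed the minimum from Ery 1 to Ery 6, divided by the fold change of the sum of the other members, on a log2 axis, with a point for each library and dashed lines at 2-fold. Rrm2 lies at 2.61 and 2.76 and Cdca7 at -3.33 and -2.42, with Mcm4 to Mcm7 between -0.62 and -1.03.

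The subcluster in which a member was highest, read from the same counts, set only part of the departing members apart. Of those that departed downward, Dtl, Chaf1b, Mcm3 and Pold3 were highest where most helicase genes were, in Ery 3. Among non-globin UMIs, 21 members were highest in Ery 3 in both libraries, next to 3.58% of all genes, among them all 6 helicase genes, Pcna, Fen1, Rrm1, Cdc45 and Cdc6. Ung, Cdca7, Hells, Ubr7 and Exo1 were highest in Ery 1 (41.2% of all genes), and Nasp and Dscc1 in Ery 2 (7.96%). Ccne2, Atad2, Pola1 and Brip1 were highest in Ery 4 (3.01%), and Tyms, Rrm2 and E2f8 in Ery 5 (14.4%). For the other 7 members the libraries differed. Ccne2, the cyclin E2 that drives entry into S phase, was at 38.4 and 33.0 counts per 1000000 non-globin UMIs in Ery 1, 154 and 134 in Ery 4 and 15.5 and 18.3 in Ery 6. Rrm2 on this scale rose from 361 and 355 in Ery 1 to 2131 and 2140 in Ery 5. Among all UMIs, where globin weighs on the later groups, 13 members were highest in Ery 3 (3.91% of all genes), 9 in Ery 2 (9.79%) and 5 in Ery 1 (53.2%), and 15 differed between libraries. On that scale 0 members were highest in Ery 4, Ery 5 or Ery 6, next to 0.96%, 3.59% and 4.08% of all genes.

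In the non-erythroid types, few members departed from the sum, and few genes of any kind did in G, Mk and Mo/KC. The counts of 0 there are thus near the share over all genes and say little about the members. Against HPSC, 0 members departed from the sum in G (next to 3.37% of all genes upward and 2.22% downward), in Mk (7.32% and 2.22%) and in Mo/KC (4.67% and 3.59%). In Hepa and in EC, 1 member did, Cdca7, downward, next to 5.8% and 2.2% of all genes, and 0 upward, next to 10.4% and 13.5%. Cdca7 was at 40.6 CPM (26.5 to 59.5) and 50.6 CPM (36.3 to 68.7) in hepatoblasts and at 45.8 CPM (23.7 to 80.0) and 49.4 CPM (32.8 to 71.4) in endothelial cells, below the interval of HPSC in both libraries. The members with the highest ratio to the sum were Cdc45, a subunit of the active helicase, in G (58.2 and 45.4 CPM, against 32.2 and 27.2 CPM in HPSC) and in Mo/KC (44.2 and 56.5 CPM), E2f8 in Mk (29.9 and 28.6 CPM, against 24.4 and 17.9 CPM), and Tyms in Hepa (195 and 144 CPM, against 122 and 117 CPM) and EC (134 and 150 CPM). None of these reached the limit, and several rest on few UMIs, such as 23 and 29 E2f8 UMIs in megakaryocytes. The members furthest below their HPSC level were Ung in G, Cdca7 in Mk and Ung in Mo/KC. Their log2 fold changes were -0.47 and -1.17, -1.25 and -1.40, and -1.81 and -0.84. From HPSC to Ery 1, 0 members departed (next to 3.56% of all genes upward and 9.15% downward), with Hells lowest (0.692 and 0.716 of its HPSC share) and Rrm2 highest (1.89 and 1.79).

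Primitive erythroblasts had the lowest S phase sum and a different mixture. They held 418 and 234 S phase UMIs in 170 and 118 cells, with 39 and 35 of the 42 members detected. All 41 members that passed the minimum were at least 2-fold lower in EryP than in HPSC in both libraries, next to 82.3% of all genes, and 23 of 41 among non-globin UMIs, next to 26.5%. Rrm2 and Tyms departed upward (28.3% of all genes), with 72.0 CPM (56.0 to 91.1) and 71.5 CPM (55.6 to 90.4) of Rrm2 and 31.3 CPM (21.1 to 44.7) and 22.8 CPM (14.3 to 34.5) of Tyms, and Nasp, Ung and Cdca7 downward (2.97%), with 7 and 1, 0 and 1, and 7 and 2 UMIs. Erythroblasts of the Eryb group exceeded EryP 11.6-fold (10.6 to 12.8) and 12.8-fold (11.3 to 14.6) in the S phase sum, and 4.29-fold and 5.48-fold among non-globin UMIs. Ery 6 and EryP were close to each other on the second scale, with ratios of 1.07 (0.966 to 1.18) and 1.41 (1.24 to 1.62), so that they differed beyond counting error in library 2 and not in library 1.

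Very low sums are near what free RNA can give. Barcodes with 1 to 50 UMIs, which mostly hold RNA from broken cells, had 0.470% (0.460 to 0.479%) and 0.402% (0.393 to 0.411%) of their UMIs in the 42 genes, more than Ery 6 or EryP. If free RNA made up 10% of the UMIs of every cell, it would give 56.0% and 95.4% of the S phase UMIs found in Ery 6 and 108% and 166% of those in EryP, but 5.61% and 6.21% of those in Ery 3. What share free RNA had in these cells was not measured. For single members, free RNA shares of 3.12% and 3.80% would give all Cdca7 UMIs of Ery 6, and shares of 42.1% and 23.9% all of its Rrm2 UMIs. Cdca7 was thus close to this background in Ery 6 in both libraries, and Rrm2 was far from it, in library 1 next to Blm (54.5%) and in library 2 farther than any other member.

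Among all UMIs, cells of a subcluster that were rich in a member tended to be rich in the others. By the fold of the median member, this was largest in Ery 4 and Ery 5 among the 6 subclusters, while by count of members Ery 5 lay below Ery 3. Thinned cells of each library were divided into 3 groups of equal size, low, middle and high, by the sum of the other 41 members. In Ery 4, 41 of 42 members had more UMIs in the high than in the low group in both libraries, next to 46.6% of genes outside the list, and the median member was 4.65-fold and 4.77-fold higher. Ccne2 had 369 and 197 UMIs in the high group and 14 and 9 in the low, Mcm5 347 and 231 against 40 and 40, and Rrm2 2716 and 1685 against 874 and 588. Pola1, the catalytic subunit of polymerase alpha, was the exception, with 56 and 36 UMIs against 31 and 41. In Ery 1, 34 of 42 were higher in both libraries, next to 26.3% of other genes, with a median of 1.34-fold and 1.32-fold. In HPSC 39 of 42 were, next to 23.9% of other genes, at 2.13-fold and 2.50-fold. In Ery 5 the median member was 4-fold and 5.08-fold higher. Cells of a group share their library and liver, and differences in the globin share between cells enter these counts. With cells thinned to 600 non-globin UMIs, where few UMIs of each gene remain, 40 of 42 members were higher in Ery 4 and 37 in Ery 5. There were 15 in Ery 1, 17 in Ery 2, 21 in Ery 3, 16 in Ery 6 and 18 in HPSC. The same count over other genes was not made on that scale, so the difference between these groups is not read as a result about the members.

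The G2 and mitosis genes were lower in cells with a high S phase sum in HPSC and in Ery 1, Ery 3, Ery 4 and Ery 5 and higher in such cells in Ery 6, while in Ery 2 of library 2 they hardly differed. In the high group of Ery 4 cells by S phase sum, the mitotic genes were at 0.568 and 0.643 of their level in the low group, with 39.0 and 25.2 UMIs per thinned cell against 68.5 and 39.2. The ratio was 0.705 and 0.796 in HPSC, 0.908 and 0.891 in Ery 1, 0.931 and 0.989 in Ery 2, 0.709 and 0.813 in Ery 3 and 0.713 and 0.715 in Ery 5. In Ery 6 it was 2.68 and 2.72, with 25.7 and 13.5 mitotic UMIs per cell in the high group and 9.61 and 4.94 in the low. Cells of Ery 6 with more S phase UMIs therefore also held more mitotic UMIs. At 10% of UMIs, free RNA would give 56.0% and 95.4% of the S phase UMIs of Ery 6. Whether free RNA bears on the Ery 6 ratio was not tested. With non-globin thinning the Ery 6 ratio was smaller (1.66 and 1.99) and the Ery 4 ratio about the same (0.645 and 0.618). In Ery 6 the groups are set apart by a few UMIs, since the boundary of the high group lay at 3 UMIs in library 1 and 2 in library 2.

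**Figure D4:**
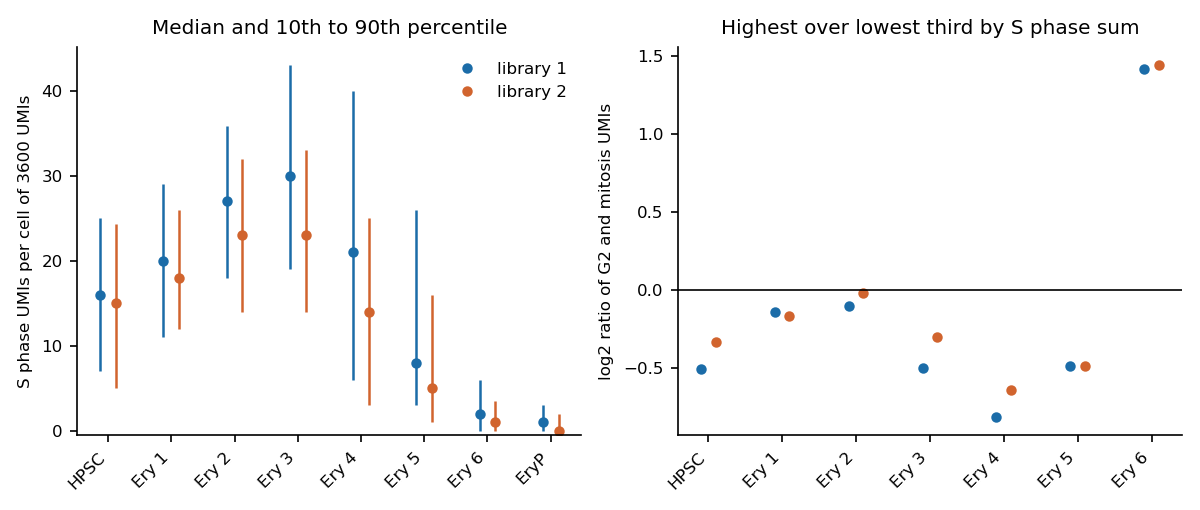
Left, median (point) and 10th to 90th percentile (line) of S phase UMIs per cell after thinning to 3600 UMIs, for each library and 8 cell groups; right, log2 ratio of G2 and mitosis UMIs between the high and low groups of cells by S phase sum in 7 cell groups. Medians fall from 30 and 23 in Ery 3 to 2 and 1 in Ery 6, and the ratio lies below 1 in HPSC and Ery 1 to Ery 5, barely so in Ery 2 of library 2 (0.989), and at 2.68 and 2.72 in Ery 6.

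Genes with related roles were read from 4 further lists. Of 47 other DNA replication genes, 44 passed the minimum, of which 42 were at least 2-fold lower in Ery 6 than in Ery 1 and 0 higher, with a median log2 fold change of -3.61, next to 74.3% and 5.46% of all genes. Among non-globin UMIs 30 of 44 were lower and 0 higher, next to 50.8% and 16.7%, with a median of -1.90, against 35 of 41 members and their median of -2.25. Dut, which clears dUTP, was at 942 and 848 CPM in Ery 1 and 45.5 and 15.5 CPM in Ery 6, Dctpp1, another nucleotide hydrolase, at 385 and 413 CPM and 26.5 and 12.9 CPM, and Orc6 of the origin recognition complex at 215 and 177 CPM and 21.1 and 10.6 CPM. Rnaseh2c, a subunit of an enzyme that removes ribonucleotides from DNA, fell less, from 258 and 286 CPM to 152 and 94.6 CPM. From Ery 3 to Ery 5, 17 of the 44 were lower and 2 higher among non-globin UMIs, next to 25.1% and 13.9% of all genes.

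The E2F and pocket protein genes behaved otherwise. Of 12, 7 passed the minimum, 3 of which were lower in Ery 6 and 2 higher, next to 74.3% and 5.46% of all genes. Among non-globin UMIs 1 was lower and 3 higher, next to 50.8% and 16.7%. E2f1, an activator of S phase genes, had log2 fold changes of -2.58 and -3.16, whereas E2f2 rose from 11.4 and 13.7 CPM in Ery 1 to 207 and 108 CPM in Ery 6 and Tfdp2, a partner of E2F factors, from 35.6 and 34.4 CPM to 479 and 264 CPM. E2f4, a factor of resting cells, was at 327 and 292 CPM in Ery 1 and 272 and 120 CPM in Ery 6. E2f2 and Tfdp2 thus went up where the members went down.

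Mitotic and histone genes took other courses than the members. Of 52 G2 and mitosis genes, 49 passed the minimum, 24 were lower in Ery 6 than in Ery 1 and 0 higher, next to 74.3% and 5.46% of all genes. Among non-globin UMIs 2 were lower and 9 higher, next to 50.8% and 16.7%, so that the count of higher genes was near that of all genes. From Ery 3 to Ery 5, 43 of these 49 rose at least 2-fold among non-globin UMIs, next to 13.9% of all genes, while 21 of the 41 members fell, next to 25.1%. Ube2c, which helps to start the degradation of mitotic proteins, went from 968 and 702 CPM in Ery 3 to 4275 and 1997 CPM in Ery 5 and 1111 and 488 CPM in Ery 6. Hmgb2, Tubb4b and Cks2, the others with the most UMIs, were at 489 and 181, 623 and 349, and 278 and 137 CPM in Ery 6. Most replication-dependent histone transcripts have no poly(A) tail, and 16 of 67 such genes passed the minimum. Of these, 14 were at least 2-fold higher in Ery 3 than in Ery 1, next to 6.53% of all genes, and 1 was lower and 3 higher in Ery 6 than in Ery 1, next to 74.3% and 5.46%. Among non-globin UMIs 1 was lower and 13 higher in Ery 6, next to 50.8% and 16.7%. Hist1h1c, a linker histone, rose from 28.4 and 24.6 CPM in Ery 1 to 561 and 287 CPM in Ery 5, and Hist1h2bc had log2 fold changes of 2.97 and 2.41 from Ery 1 to Ery 6. Hist1h4i had log2 fold changes of 0.40 and -0.68, in opposite directions. Hist1h2ap differed between libraries, with 801 CPM in Ery 1 of library 1 and 18.7 CPM in library 2, and the cause was not tested.

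Over the 13 groups, the genes that followed the S phase sum most closely were sought among 5310 genes by the Pearson correlation of log2 CPM, as a description only, since the groups share libraries and globin load and since each member is part of the sum. Outside the list, Dnajc9, a histone chaperone, came first (mean r of 0.991 over both libraries), before Lig1, the ligase that joins lagging strand fragments, Gins4, Srrm1 and Rpa1. Among members, Tipin (0.990), a stabiliser of replication forks, Gmnn (0.986), the inhibitor of origin licensing, and Usp1 (0.986) were closest, and 18 of 41 were among the first 100 genes. Hells (0.767), Rrm2 (0.702) and Cdca7 (0.644) followed least, with a median of 0.723 over all genes.

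The deposited table also names a cell cycle phase for each cell. How it was called is not given in the sources used here, and such calls commonly use genes of this list, so they are no independent readout. S phase was named for 35.9% of cells in library 1 and 38.1% in library 2, and for 68.7% and 72.9% of Ery, 30.7% and 32.7% of Eryb, 35.2% and 34.6% of HPSC and 8.24% and 5.93% of EryP. The median share of the S phase sum among non-globin UMIs was 0.817% and 0.762% in cells named S, 0.353% and 0.331% in those named G1 and 0.334% and 0.356% in those named G2M. In the small types the S calls differed more between libraries, with 24.2% and 51.6% in Hepa, 25% and 11.5% in EC and 11.4% and 19.6% in Mk. G2M was named for 46.7% of cells in library 1 and 14.6% in library 2. In library 1 the deposited G2M score was exactly 0 in 3400 cells, and 2314 of these were named G2M, so the G2M and G1 names of the libraries cannot be compared. Whether these scores also changed the S names of library 1 was not tested.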

How the data were processed

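Single-cell RNA-seq libraries (10x Genomics, 3′ ends) of 1 E12.5 mouse liver were used. According to the methods and the submitters' processing notes, the authors made the deposited UMI counts with Cell Ranger 2.1.1 on build mm10 after bcl2fastq 2, removed cells with fewer than 200 genes, merged both libraries, and normalized and clustered them with Seurat 3.2.0. The deposited matrices hold counts per gene and barcode, not normalized. A matrix header of library 1 names another Cell Ranger version than the processing notes, and whether this bears on differences between the libraries was not tested. The deposited cell table gives the cell type, subcluster and cell cycle phase of each kept cell, and its deposited phase scores were used only to describe the calls.

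Here the 42 members were summed over the kept cells of each cell type and of Ery 1 to Ery 6, in each library on its own, and divided by all UMIs (CPM for single genes) or by the UMIs outside 8 globin genes. Intervals are exact (Poisson for sums, Clopper-Pearson for shares, conditional binomial for ratios) at 95% and cover counting error only. Folds are Ery 1 over Ery 6 and the like; counts under 3 were set to 3 in folds of single genes. Genes passed at 10 CPM over the kept cells of each library. Calls needed 2-fold in both libraries, and a departure was that of a member against the sum of the other 41. Cells were thinned with seed 1 to 3600 UMIs or 600 non-globin UMIs. Given with values by rule were Mcm2 to Mcm7 and Pcna, the departing members, the 3 members highest and the 3 lowest against the sum between Ery 1 and Ery 6, the member highest against the sum in each type set against HPSC, the 4 genes with most UMIs of each further list and the 5 genes outside the list that followed the sum most closely; other members were named after their values were seen. The members and lists were chosen with earlier results of these data known. With technical replicates of 1 liver no test was run. The scripts were tested on simulated data. Alternatives were the non-globin scale, UMIs per cell, the median member, the sum without Rrm2, at least 1000 genes and under 10% mitochondrial UMIs, leaving out the 4% of cells with most UMIs, subtracting 10% free RNA, other thresholds and thinning depths, and each library alone. All steps ran in Python 3.11.15 with scipy 1.17.1, pandas 2.3.3 and numpy 2.4.6, and figures were drawn with matplotlib 3.10.9.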

Additional observations from a re-analysis of the deposited data

Results flagged for a closer look

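Barcodes that the deposited table does not hold, although they had at least 1000 UMIs and 200 genes, also carried S phase transcripts. In library 1, 168 such barcodes held 0.461% of their UMIs in the 42 genes (0.440 to 0.483%), and in library 2, 3311 held 0.405% (0.400 to 0.410%). They stand here because no comparison uses them and their share was above the limit that a count of 0 allows. Barcodes with 1 to 50 UMIs held 0.470% (0.460 to 0.479%) and 0.402% (0.393 to 0.411%), and the intervals overlap in each library. Among non-globin UMIs the larger barcodes held 0.758% against 0.594% in the smaller ones in library 1, and 0.656% against 0.662% in library 2. Globin transcripts made up 39.2% and 38.2% of the UMIs of the larger barcodes and 20.9% and 39.3% of those of the smaller ones. Whether these barcodes were cells was not tested.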

How the results depend on the processing

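No paired analysis was possible because the results come from no test and both libraries were made from 1 liver. With each library alone, the ratio of HPSC over Ery ran from 0.687 to 0.714, Ery 1 over Ery 6 from 6.77 to 12.53, Eryb over EryP from 11.6 to 12.8, HPSC over G from 1.02 to 1.02, HPSC over Mo/KC from 0.990 to 1.11 (0.990 without library 1, which turns the direction) and HPSC over Hepa from 1.35 to 1.42. The members at least 2-fold lower in Ery 6 ran from 40 to 41, those departing from 18 to 18, those higher in Ery 1 cells with a high sum from 37 to 38, the mitotic ratio in Ery 1 from 0.891 to 0.908, and the share of Ery 6 cells with no S phase UMI above that of Ery 1 from 13.4 to 35.5 percentage points. HPSC over Ery (0.700) was 0.515 per cell, 0.727 for the median member, 0.729 without Rrm2 and 0.678 after subtraction of free RNA. Ery 1 over Ery 6 (9.21) was 2.81 among non-globin UMIs, 38.3 per cell, 14.9 for the median member, 4.71 under the stricter cell filter and 59.8 after subtraction of free RNA. Eryb over EryP (12.2) was 4.85, 14.2, 10.9 and 5.46 under the first 4 of these and 14.3 without the cells with most UMIs; with free RNA subtracted it had no value, since none was left in EryP. HPSC over G (1.02) was 1.01 among non-globin UMIs, 1.203 per cell, 1.11 for the median member, 1.05 without Rrm2, 1.02 under the stricter filter and without the cells with most UMIs, and 1.03 after subtraction. HPSC over Mo/KC (1.05) was 1.2001 per cell, and HPSC over Hepa (1.38) was 0.959 per cell, which turns the direction, 1.47 for the median member and 1.45 after subtraction. Departing members (14) were 26 at 1.5-fold, 5 at 3-fold and 28 after subtraction. The mitotic ratio in Ery 1 (0.899) was 0.830 without thinning, 0.848 at 7200 UMIs and 0.877 between the outermost of 5 groups. Ery 1 over Ery 2 (0.788) turned to 1.16 per cell, and Ery 2 over Ery 3 (0.943) to 1.46 per cell, 1.03 for the median member and 0.887 to 1.003 with each library alone. The cause was not tested. Of the single values of lesser weight, 16 moved, 4 turned and 52 did neither. The stricter filter kept 177 of 1218 and 134 of 1176 Ery 6 cells. Depth limits the members that fell furthest, since Exo1 had 10 and 4 UMIs in all of Ery 6, and the smallest cell types.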
